A study of Mus musculus with 8 samples.

Results

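Dense clusters of accessible distal regions are stretches of chromosome in which many open sites lie close together away from gene starts and ends. In each line, distinct regions whose centre lay more than 1 kb from any start or end of a protein-coding gene were taken, neighbours with gaps of at most 12500 bp were joined, and joined runs of 6 or more regions were kept. In the EBF1-dTAG_C line 8075 of 54239 regions fell into 989 such clusters, which is 14.9% of the authors' deposited table and 18.8% of its 42960 distal regions. In the EBF1-dTAG_N line 9738 of 55193 regions fell into 1167 clusters, which is 17.6% of the authors' deposited table and 22.2% of its 43801 distal regions. The rule uses the positions of the regions in each line's table and no fold or call, but it was chosen with earlier results of these data known. A cluster is called here by the protein-coding gene nearest to most of its regions, and the name does not say which gene the regions act on.

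EBF1 directs lymphoid progenitors to the B cell fate and, as a transcription factor, binds promoters and distal enhancers of genes such as those for the pre-B cell receptor. Distal enhancers are stretches of DNA that raise transcription of a gene from a distance, and in lymphoid cells they often lie in groups, with several factors bound at each site. The individual elements of such a group can depend on different factors, which is why whole clusters and their single regions are described side by side.

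Chromatin accessibility was measured by ATAC-seq, in which the transposase Tn5 cuts open DNA, in mouse pro-B cells that Abelson murine leukaemia virus had transformed. Both lines carry an exogenous modified EBF1 in place of the endogenous protein, and their names, EBF1-dTAG_C and EBF1-dTAG_N, give it a dTAG degron. The groups were cells given 0.5 uM dTAG-13, the compound that directs a dTAG protein to degradation, for 6 h, and cells given the solvent DMSO for 6 h. The titles of the DMSO samples say 0 h, and the treatment label was followed. There were 2 libraries in each of the 4 groups and 8 in all. The replicates are described as biological, but nothing says that they came from separate cultures or whether a line is 1 clone, so p-values may measure technical spread only, and the transformed, transgenic cells are a model of pro-B cells rather than primary ones.

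The lists held 34202 to 39721 peaks in the dTAG-13 libraries and 40166 to 42139 in the DMSO libraries, and the depth in reads is unknown. Of 11 B lineage marker genes, 8 in EBF1-dTAG_C and 10 in EBF1-dTAG_N had a peak within 1 kb of their start or end in both DMSO libraries, against 0 and 1 of 8 T cell, 0 and 0 of 7 myeloid, and 2 and 1 of 5 erythroid and megakaryocyte genes. Per-region changes are those of the authors' deposited tables, in which a positive log2 fold change means higher accessibility after dTAG-13. A region is said to have fallen or risen where the deposited Benjamini-Hochberg adjusted p was under 0.05. The deposited F and p-values match a test with 110386 denominator degrees of freedom in EBF1-dTAG_N but 11.2 in EBF1-dTAG_C, so counts of calls are not comparable between the lines.

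Some cluster regions overlap the start of a noncoding gene or an internal start of a coding gene, and there the reference sequence can be shown. The 3 windows below are RefSeq GRCm38.p6 sequence from 250 bases before to 50 bases after an annotated start. They were chosen after their values were seen, the first because it holds the letters of the EBF motif searched here (TCCC, any 2 bases, then GGGA) and the others for contrast, and capitals mark a match to those letters, which read alike on both strands.
Gm32633 upstream start, chr7:63986585-63986884, plus strand: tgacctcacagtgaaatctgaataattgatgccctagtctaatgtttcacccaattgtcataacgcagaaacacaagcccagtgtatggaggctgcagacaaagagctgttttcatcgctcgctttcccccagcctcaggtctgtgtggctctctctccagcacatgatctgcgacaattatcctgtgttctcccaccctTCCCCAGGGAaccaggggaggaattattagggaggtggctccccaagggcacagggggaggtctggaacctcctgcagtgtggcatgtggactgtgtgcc
Gm32633 downstream start, chr7:64001654-64001953, plus strand: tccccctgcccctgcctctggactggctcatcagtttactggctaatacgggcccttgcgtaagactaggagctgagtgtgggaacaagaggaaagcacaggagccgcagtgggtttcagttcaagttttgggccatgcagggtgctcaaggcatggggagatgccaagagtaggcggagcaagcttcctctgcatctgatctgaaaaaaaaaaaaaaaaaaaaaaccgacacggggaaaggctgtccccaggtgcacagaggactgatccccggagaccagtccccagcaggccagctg
Adgrg1 internal start, chr8:94976859-94977158, plus strand: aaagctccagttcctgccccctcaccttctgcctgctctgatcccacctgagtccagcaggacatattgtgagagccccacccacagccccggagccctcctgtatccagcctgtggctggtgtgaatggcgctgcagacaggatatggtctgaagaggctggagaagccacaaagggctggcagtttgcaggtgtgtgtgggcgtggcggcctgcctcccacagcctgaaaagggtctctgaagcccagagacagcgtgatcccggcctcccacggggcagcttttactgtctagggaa

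The noncoding gene Gm32633 lies in a cluster next to Klf13, a zinc finger transcription factor gene. The region at its upstream start had log2 fold changes of -1.80 in EBF1-dTAG_C and -2.12 in EBF1-dTAG_N (adjusted p = 0.00670 and 1.27e-13 in the authors' deposited tables). The match lies inside the EBF1-dTAG_C region and just outside the EBF1-dTAG_N region. The region at the downstream start of Gm32633, whose window holds no match, had log2 fold changes of -0.74 and -0.95 (adjusted p = 0.0299 and 1.23e-15 in the authors' deposited tables). The region at the internal start of Adgrg1, whose window holds no match, had log2 fold changes of -1.59 and -1.55 (adjusted p = 0.00114 and 6.00e-32 in the authors' deposited tables).

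Over all 32851 start windows of the reference, 0.904% held a match to the EBF letters. Windows that overlap a cluster region held one in 4 of 355 cases in EBF1-dTAG_C and in 9 of 387 in EBF1-dTAG_N. Among windows over regions that fell it was 1 of 19 and 8 of 57, and over regions that rose 0 of 1 and 0 of 108. A match is a description of letters and not a bound site, and these windows cover only the small share of cluster regions that touch an annotated start.

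Clusters were large and built much alike in both lines. The median cluster held 7 regions in each line and spanned 34.4 kb in EBF1-dTAG_C and 33.6 kb in EBF1-dTAG_N, and 8 and 13 clusters held 20 regions or more. The largest EBF1-dTAG_C clusters were a stretch of 28 regions beside Cxxc5, 27 regions at Mtss1, whose product links membranes to the actin cytoskeleton, 25 at Zmiz1, a transcriptional coregulator gene, and 24 at Adgrg1, which encodes an adhesion G protein-coupled receptor. In EBF1-dTAG_N they were 31 regions beside the Rab GTPase-activating protein gene Tbc1d16, 29 at Zmiz1, 27 at Mtss1, and 26 each at Adgrg1 and at Foxp1, a forkhead factor gene needed for B cell development. Of the cluster regions, 54.7% in each line lay inside a protein-coding gene. All regions of a cluster had the same nearest gene in 561 EBF1-dTAG_C clusters (56.7%) and 680 EBF1-dTAG_N clusters (58.3%). Cluster regions had higher mean abundance than other distal regions, with medians of 2.85 and 1.82 log2 CPM in EBF1-dTAG_C and 2.88 and 1.81 log2 CPM in EBF1-dTAG_N.

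Accessibility fell at 944 of the 8075 cluster regions of EBF1-dTAG_C (11.7%), against 6.62% of all regions in the authors' deposited table. It rose at 48 (0.594%), against 0.308% of all regions. In EBF1-dTAG_N it fell at 2655 of 9738 cluster regions (27.3%), against 18.5% of all regions in the authors' deposited table, and rose at 1899 (19.5%), against 18.8% of all regions. The regions that fell had median log2 fold changes of -2.02 in EBF1-dTAG_C and -1.80 in EBF1-dTAG_N, whereas those that rose had 0.89 and 0.74. The median over all cluster regions was 0.09 in each line, beside 0.09 and 0.17 over all regions. Falls were 58.3% of the EBF1-dTAG_N calls in clusters, and 73.6% (2957 falls and 1061 rises) with folds centred on the median over all regions. Over all EBF1-dTAG_N regions there were 10190 falls and 10383 rises as deposited, and 11454 falls and 4403 rises with centred folds. Centring thus moved the balance towards falls over all regions as well. The share that fell was close on either side of the smallest run taken. In runs of exactly 6 regions 10.6% fell in EBF1-dTAG_C and 26.2% in EBF1-dTAG_N; in runs of exactly 5, which are not members, these shares were 10.0% and 25.5%.

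Because the deposited tests call more regions where abundance is higher, cluster regions were also set beside other distal regions of the same quintile of mean abundance. In the highest quintile, 18.6% of cluster regions and 12.6% of other distal regions fell in EBF1-dTAG_C, while EBF1-dTAG_N had 37.4% and 26.5%. In the lowest quintile the shares were 1.29% and 1.55% in EBF1-dTAG_C, while EBF1-dTAG_N had 14.8% and 12.7%. Rises went the other way in the highest quintile of EBF1-dTAG_N, with 29.3% of cluster regions and 36.6% of other distal regions. These shares are counts of the authors' calls, and no test of the difference between the sets was made because regions of a table share the same 4 libraries.

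**Figure D1:**
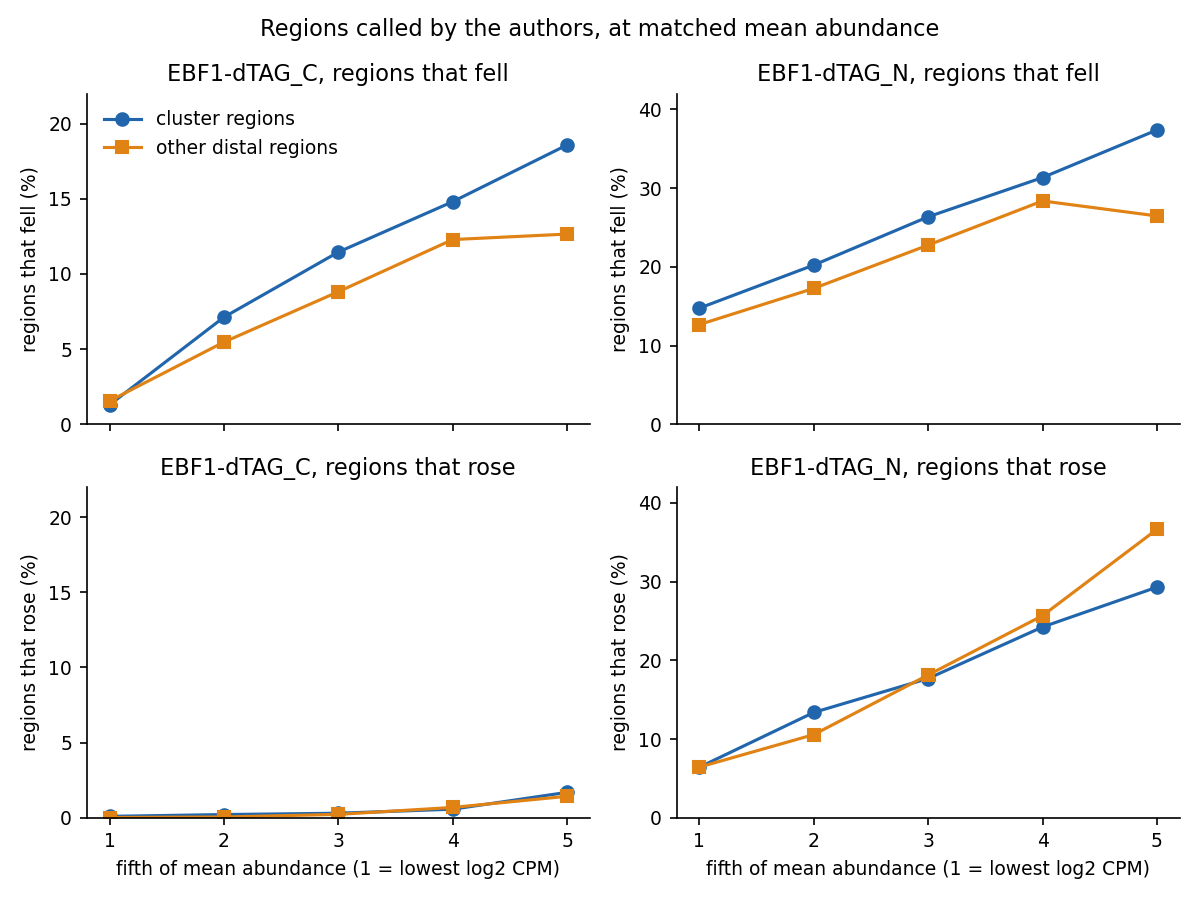
Percentage of cluster regions (circles) and other distal regions (squares) that fell (upper row) or rose (lower row) in the authors' deposited tables, by quintile of mean abundance in log2 CPM, for each line. Among regions that fell, the circles lie above the squares in each quintile except the lowest of EBF1-dTAG_C, and in the highest quintile of EBF1-dTAG_N fewer cluster regions rose, 29.3% against 36.6%.

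Falls were found in many clusters, and in most clusters with a fall less than 50% of the regions fell. Over all cluster regions 11.7% fell in EBF1-dTAG_C and 27.3% in EBF1-dTAG_N. Whether falls were more or less grouped in clusters than these shares alone would give was not tested. Of the 989 EBF1-dTAG_C clusters, 540 (54.6%) held a region that fell, 297 of them exactly 1 such region, 143 exactly 2, and 100 held 3 or more. At least 50% of the regions fell in 25 clusters and all of them in 0, and 425 clusters (43.0%) held no call in either direction. Falls and rises stood side by side in 16 clusters (1.62%). In EBF1-dTAG_N, 973 of 1167 clusters (83.4%) held a region that fell, 653 (56.0%) held falls and rises, and 28 held no call. At least 50% of the regions fell in 190 EBF1-dTAG_N clusters and rose in 105. A single EBF1-dTAG_N cluster fell at each of its regions, the one of 7 regions at the forkhead gene Foxp4, and a single one rose at each, the one beside Plpp3. Both are named here because of these values.

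The size of the change also differed within clusters. In clusters with a fall, the lowest region had a median log2 fold change of -2.46 in EBF1-dTAG_C and -2.58 in EBF1-dTAG_N, while the highest region of the same clusters had 0.67 and 0.88. In the median such cluster 16.7% of the regions fell in EBF1-dTAG_C and 28.6% in EBF1-dTAG_N. When the levels of all regions of a cluster were added up, the median change of clusters with a fall was -16.8% and -14.2%. A single region carried 62.3% and 62.5% of the summed loss in the median such cluster. The levels summed here were rebuilt from the deposited mean abundance and fold, so they describe sizes and carry no test.

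Most of the spread of folds lay inside clusters. The pooled SD of log2 fold changes within clusters was 0.97 in EBF1-dTAG_C and 1.22 in EBF1-dTAG_N, close to the SD over all cluster regions, 1.01 and 1.28. The variance between clusters was 8.76% and 10.1% of the total by the intraclass correlation. The median approximate standard error of a single fold was 0.35 and 0.26. A median and a pooled SD are unlike measures, and the part of error in the spread within clusters was not tested. Without the lowest quartile of mean abundance, the variance between clusters was 11.2% and 12.8%. Neighbours at most 1 kb apart differed by a median of 0.42 (EBF1-dTAG_C) and 0.63 (EBF1-dTAG_N) on the log2 scale, and neighbours 6000 to 12500 bp apart by 0.65 and 0.88. Of neighbouring pairs with at least 1 region that fell, both fell in 169 of 1508 EBF1-dTAG_C pairs (11.2%) and 864 of 3894 EBF1-dTAG_N pairs (22.2%). Whether neighbours fell together more or less often than the overall shares of falls would give was not tested. In EBF1-dTAG_N 670 neighbouring pairs joined a region that fell to one that rose, 108 of them at most 1 kb apart.

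The share of regions that fell was also counted by place within a cluster. Regions inside a gene fell in 11.7% of cases in EBF1-dTAG_C, as did those outside genes, and in 27.7% and 26.7% in EBF1-dTAG_N. Inner regions fell in 12% and 28.4% of cases, and the regions at the ends of clusters, whose median abundance was lower, in 10.7% and 23.7%. The most abundant region of its cluster fell in 16.7% of EBF1-dTAG_C clusters and 35.3% of EBF1-dTAG_N clusters, the other regions in 11.0% and 26.2%. Clusters of 15 regions or more had 14.6% of their regions fallen in EBF1-dTAG_C and 33.4% in EBF1-dTAG_N, while clusters of 6 or 7 had 10.5% and 26.1%. There was no steady rise with size, since clusters of 8 or 9 had 9.95% and 25.1%. Median abundance was 3.05 and 3.34 log2 CPM in the clusters of 15 or more, against 2.68 and 2.76 in those of 6 or 7. Calls are more frequent where abundance is higher, for these clusters and for the most abundant regions, and its part here was not tested.

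The Adgrg1 cluster lost accessibility at many of its regions. It covers 117.7 kb in EBF1-dTAG_C, with 18 of its 24 regions inside genes and 4 different nearest genes. There 14 and 12 of the 24 regions had a peak in the dTAG-13 libraries, against 20 and 17 in the DMSO libraries, so that the groups did not overlap. The same held over all EBF1-dTAG_C cluster regions, with 62.5% and 61.4% against 72.1% and 77.0%. It also held over other distal regions, with 55.4% and 55.2% against 68.6% and 71.9%, so it is not particular to this cluster. 8 of 24 regions fell and 0 rose in the authors' deposited EBF1-dTAG_C table, whereas 13 of 26 fell and 1 rose in that of EBF1-dTAG_N. The EBF1-dTAG_C region with the lowest fold, inside Adgrg1 at chr8:94978358-94978978, had a fold enrichment of 6.58 in the first dTAG-13 library and no peak in the second, against 15 and 16 in the DMSO libraries. Its log2 fold change was -2.48 in both lines (adjusted p = 1.51e-05 in the authors' deposited EBF1-dTAG_C table). The highest log2 fold change in the cluster was 0.80 in EBF1-dTAG_C, with no call, and 0.83 in EBF1-dTAG_N.

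Myl10, a myosin light chain gene, lends its name to a cluster of 20 regions in EBF1-dTAG_C of which 1 lies inside a gene. Peaks stood over 8 and 12 of them in the dTAG-13 libraries, against 15 and 17 in the DMSO libraries. 8 of 20 regions fell and 0 rose in the authors' deposited EBF1-dTAG_C table, whereas 14 of 22 fell and 0 rose in that of EBF1-dTAG_N. The region chr5:136660630-136661016 had no peak in either dTAG-13 library, against fold enrichments of 12.7 and 10.7 in the DMSO libraries. Its log2 fold change was -4.14 (adjusted p = 5.33e-04 in the authors' deposited EBF1-dTAG_C table) and -3.42 in EBF1-dTAG_N. Up to 0.89 on the log2 scale, without a call, was measured elsewhere in the same cluster.

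Fam53b, whose product regulates Wnt signalling, names a cluster of 18 regions in EBF1-dTAG_C, all inside genes. There 10 and 10 regions had a peak in the dTAG-13 libraries, against 15 and 15 in the DMSO libraries. 7 of 18 regions fell and 0 rose in the authors' deposited EBF1-dTAG_C table, whereas 15 of 20 fell and 1 rose in that of EBF1-dTAG_N. At chr7:132736528-132736916 neither dTAG-13 library had a peak, and the DMSO libraries had fold enrichments of 10.9 and 13.2. The log2 fold change there was -4.20 (adjusted p = 7.23e-06 in the authors' deposited EBF1-dTAG_C table) and -4.01 in EBF1-dTAG_N. The median of the cluster was -0.87 in EBF1-dTAG_C and -1.49 in EBF1-dTAG_N.

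The cluster at Elfn1, a gene for a synaptic adhesion protein, had falls at most of its regions. There 5 of 7 regions fell in the authors' deposited EBF1-dTAG_C table and 6 of 7 in that of EBF1-dTAG_N, with median log2 fold changes of -2.28 and -3.35. Peaks stood over 1 and 2 of the 7 regions in the EBF1-dTAG_C dTAG-13 libraries, against 6 and 5 in the DMSO libraries. Its summed level differed by -76.5% in EBF1-dTAG_C and -85.1% in EBF1-dTAG_N. Its highest region stood at 0.90 and 0.99 on the log2 scale, with no call in either line, and the SD of its folds was 2.43 in EBF1-dTAG_C.

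Other clusters with many falls had the same mixed build. At Zmiz1, 7 of 25 EBF1-dTAG_C regions fell, as did 13 of 29 in EBF1-dTAG_N, where 4 rose, in the authors' deposited tables. Peaks stood over 13 and 12 of the 25 Zmiz1 regions in the dTAG-13 libraries, against 19 and 21 in the DMSO libraries. At Tbc1d16, 8 of 17 EBF1-dTAG_C regions fell in a cluster of 47.6 kb and 2 of 10 in another, in the authors' deposited table. The EBF1-dTAG_N cluster there, which overlaps both and spans 127.8 kb, had 15 falls and 4 rises among 31 regions. The cluster at Ptma, the prothymosin alpha gene, had 5 falls among 18 regions in EBF1-dTAG_C and 8 among 18 in EBF1-dTAG_N. Lower still by their medians were the clusters at the neurexin gene Nrxn2, at -2.61 and -2.72 on the log2 scale, and at Cmip, at -2.25 and -1.69. In EBF1-dTAG_N alone 12 of 14 regions fell at Pde2a, a cyclic nucleotide phosphodiesterase gene, and 7 of 8 each beside Insig1, a regulator of cholesterol synthesis, and Tle3, a Groucho-family corepressor gene, in the authors' deposited table. Pde2a had 4 falls among 12 regions in EBF1-dTAG_C, whereas the Insig1 and Tle3 stretches overlap no EBF1-dTAG_C cluster.

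**Figure D2:**
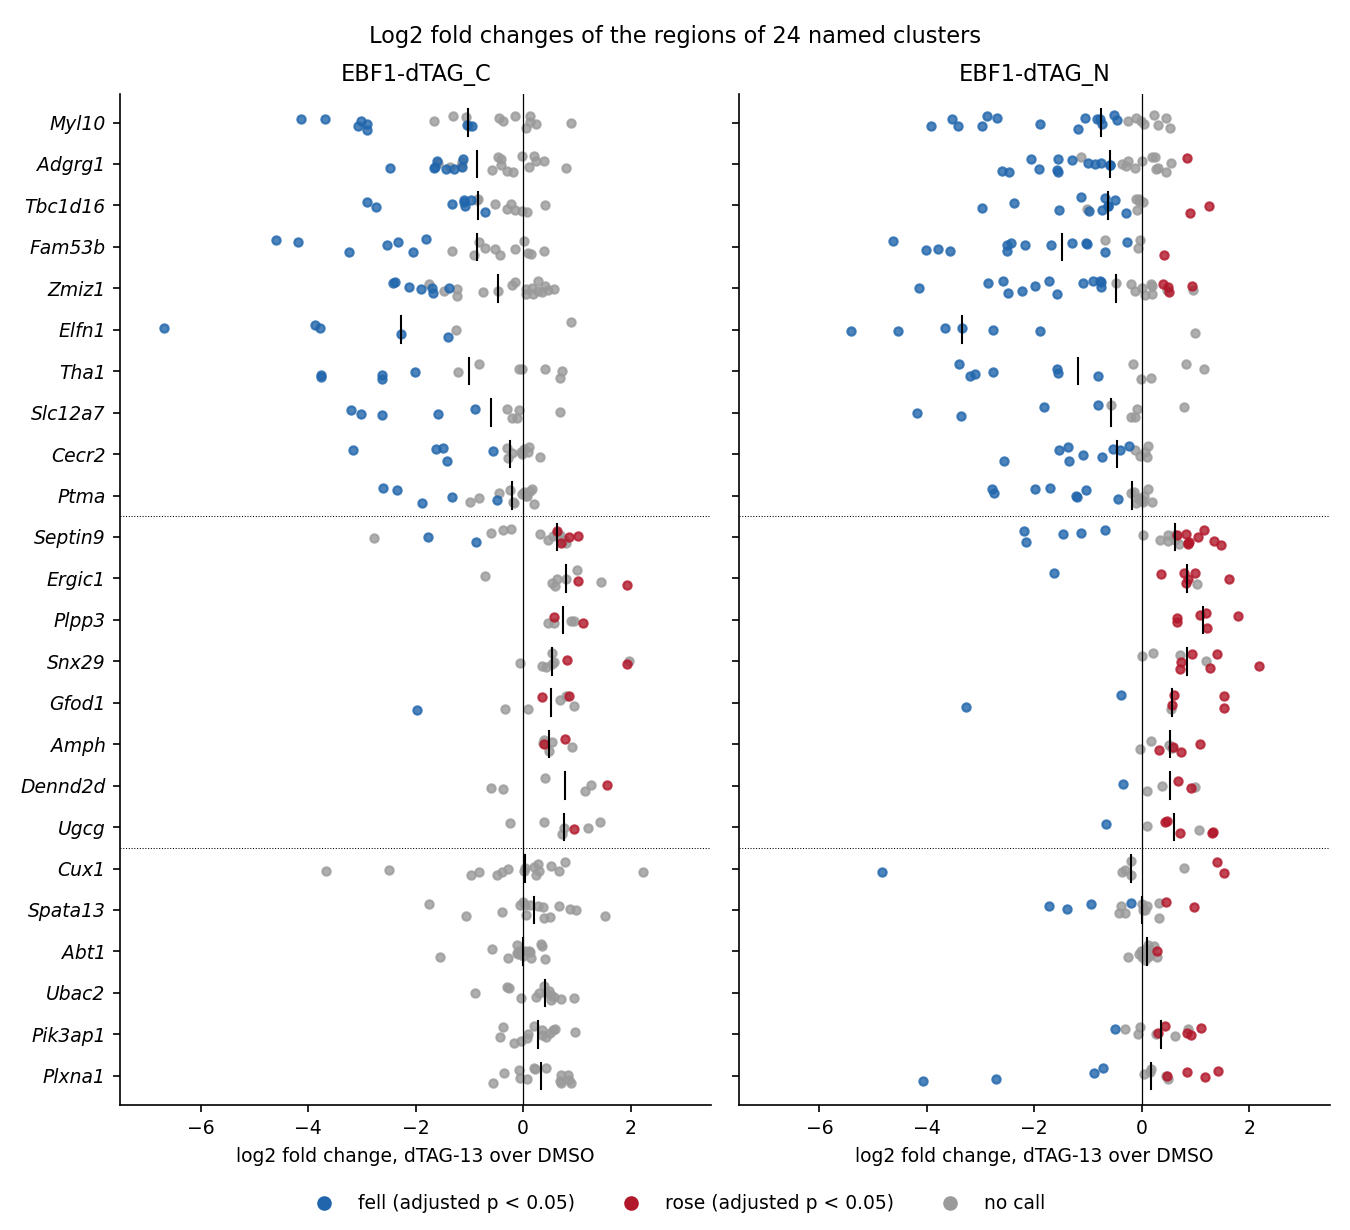
Log2 fold changes, dTAG-13 over DMSO, of the regions of 24 EBF1-dTAG_C clusters (left) and of the EBF1-dTAG_N cluster regions in the same stretches (right); points are regions, coloured by the authors' call, short lines are medians, and rows give the clusters with most falls, with most rises, and the largest with no call in EBF1-dTAG_C. Single regions down to -6.68 at Elfn1 share a cluster with regions near 0, and no EBF1-dTAG_N cluster lies at Ubac2.

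Rises were smaller than falls in both lines, by the medians above. The cluster at Septin9, which encodes a cytoskeletal GTP-binding protein, had 4 rises and 2 falls among 19 regions in EBF1-dTAG_C, and 9 rises and 5 falls among 21 in EBF1-dTAG_N, in the authors' deposited tables. At chr11:117320488-117320877, inside Septin9, fold enrichment was 14 and 16.1 in the dTAG-13 libraries, against 11.2 and 12 in the DMSO libraries of EBF1-dTAG_C. Its log2 fold change was 0.86 (adjusted p = 0.00640 in the authors' deposited EBF1-dTAG_C table) and 1.48 in EBF1-dTAG_N. At chr11:117308370-117308930, also inside Septin9, fold enrichment was 6.86 and 9.39 in the dTAG-13 libraries, against 11.2 and 9.79 in the DMSO libraries. That region fell, with log2 fold changes of -1.76 and -2.18 in the authors' deposited tables (adjusted p = 5.73e-04 in EBF1-dTAG_C). A region that rose and one that fell thus lie in the same gene, and both directions were called in both lines.

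The cluster beside Plpp3, a lipid phosphate phosphatase gene, changed evenly. There 2 of 6 regions rose in the authors' deposited EBF1-dTAG_C table and 6 of 6 in that of EBF1-dTAG_N, with median log2 fold changes of 0.73 and 1.13. Its folds spanned 0.46 to 1.12 in EBF1-dTAG_C, with 0.65 to 1.79 in EBF1-dTAG_N. Peaks stood over 5 and 6 of the 6 regions in the EBF1-dTAG_C dTAG-13 libraries, against 4 and 5 in the DMSO libraries, so that the groups overlap. At Mtss1, 4 of 27 regions fell and 0 rose in EBF1-dTAG_C, and 6 of 27 fell and 11 rose in EBF1-dTAG_N. A cluster at the sorting nexin gene Snx29 had 2 rises among 9 regions in EBF1-dTAG_C, and 8 rises and 2 falls among 17 in EBF1-dTAG_N. Among the largest clusters with no call in EBF1-dTAG_C were 17 regions at the homeobox gene Cux1, with folds of -3.66 to 2.23 on the log2 scale, and 16 at Spata13. A further Cux1 cluster of 6 regions had 4 falls and a median of -2.12, so clusters named for one gene differed. They also differed in median abundance, 1.37 log2 CPM in the uncalled cluster against 3.42, and calls are rarer where abundance is low. The EBF1-dTAG_N cluster overlapping the uncalled one had 1 fall and 2 rises among 8 regions.

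**Figure D3:**
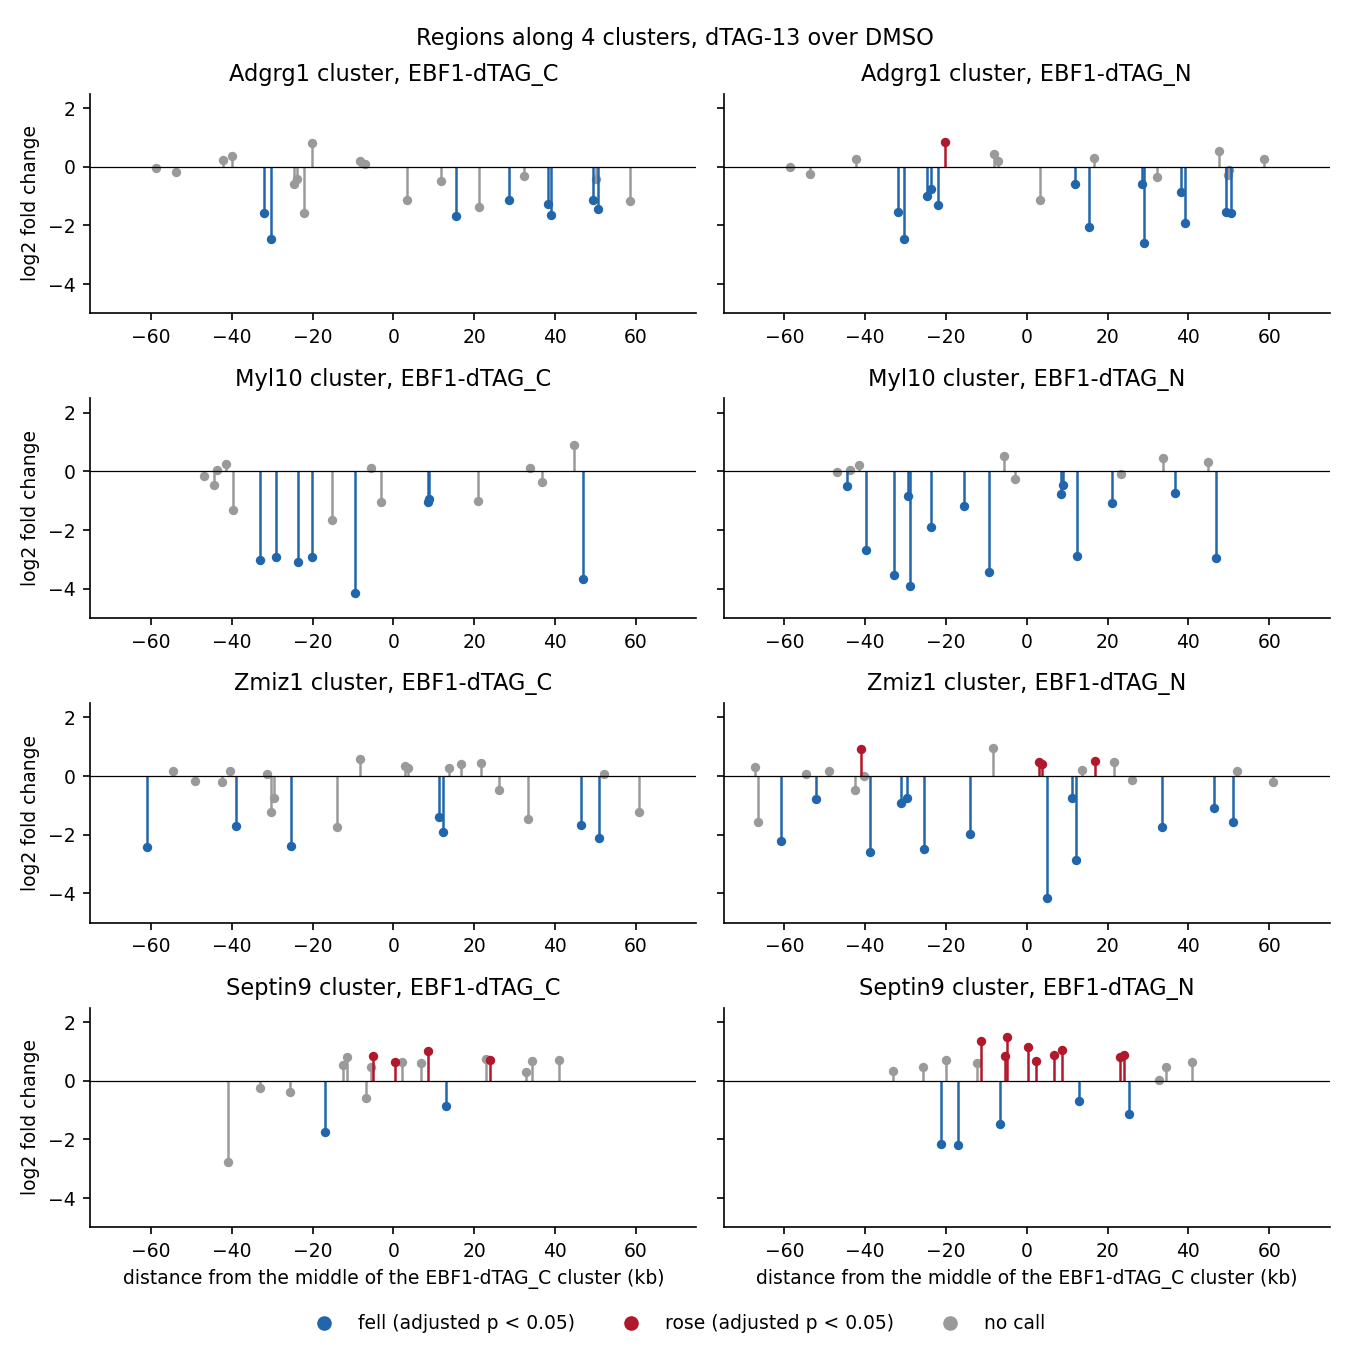
Log2 fold change of each region (dTAG-13 over DMSO) along the Adgrg1, Myl10, Zmiz1 and Septin9 clusters of both lines, by distance in kb from the middle of the EBF1-dTAG_C cluster; colours give the authors' call. Regions that fell lie among uncalled ones in each cluster, and at Septin9 rises and falls lie within the same gene in both lines.

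Clusters named for early B cell genes were mixed as well. Of 24 such genes, among them targets of EBF1, 5 lend their name to 6 EBF1-dTAG_C clusters, in which 10 of 44 regions fell (22.7%) and 0 rose, beside 11.7% over all cluster regions. The median of their cluster medians was -0.12 on the log2 scale, beside 0.09 over all EBF1-dTAG_C clusters. In EBF1-dTAG_N 7 of the genes lend their name to 8 clusters, in which 28 of 81 regions fell (34.6%) and 12 rose (14.8%), beside 27.3% and 19.5% over all cluster regions, and the median of their medians was 0.12, beside 0.08. Both EBF1-dTAG_C clusters at the complexin gene Cplx2 held 3 falls, among 7 and among 6 regions, and the single EBF1-dTAG_N cluster there held 10 falls and 2 rises among 16. At Pax5, the factor that commits cells to the B lineage, 5 of 9 EBF1-dTAG_N regions fell and 1 rose in the authors' deposited table. At Blnk, an adaptor of the pre-B cell receptor, 5 of 18 EBF1-dTAG_N regions fell and 5 rose, and at Foxo1, a forkhead factor gene acting beside EBF1, 2 of 7 regions fell in EBF1-dTAG_C. In EBF1-dTAG_N 1 Foxo1 cluster had 1 fall and 0 rises among 6 regions, and another 3 falls and 1 rise among 13. These lists were drawn up with earlier results of these data known.

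B lineage transcription factor genes name 24 EBF1-dTAG_C clusters, in which 20 of 206 regions fell (9.71%) and 1 rose (0.485%), beside 11.7% and 0.594% over all cluster regions. In EBF1-dTAG_N they name 27 clusters, with 62 of 247 regions fallen (25.1%) and 56 risen (22.7%). In the cluster inside Ebf1 itself, the region chr11:44911263-44911643 had fold enrichments of 6.84 and 5.51 in the dTAG-13 libraries, against 16.6 and 12.6 in the DMSO libraries. It was the 1 of 10 regions that fell there in the authors' deposited EBF1-dTAG_C table (log2 fold change -1.49, adjusted p = 0.0326), and in EBF1-dTAG_N 1 of 9 fell and 5 rose. Near Tcf3, which encodes the E2A proteins that act with EBF1, 4 of 6 EBF1-dTAG_N regions fell and 0 rose, with a median log2 fold change of -1.04. At Erg, an ETS factor gene, 2 of 6 EBF1-dTAG_C regions fell, the lower with a log2 fold change of -2.98 (adjusted p = 2.86e-05 in the authors' deposited table). At Ikzf1, the Ikaros gene, 1 EBF1-dTAG_N cluster had 6 rises and 0 falls among 13 regions, and the other 2 of each among 7. The EBF1-dTAG_C cluster that overlaps the one of 13 had 0 rises and 0 falls among 11 regions, with a median log2 fold change of 0.30. The 4 Foxp1 clusters of EBF1-dTAG_C had 1 fall each, and the EBF1-dTAG_N cluster of 16 regions at Foxp1 had 9 rises and 2 falls. The EBF1-dTAG_N cluster of 26 regions there had 4 rises and 5 falls, and the one of 6 regions had 1 rise and 2 falls.

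Signalling and proliferation genes name 19 EBF1-dTAG_C clusters, with 22 of 161 regions fallen (13.7%) and 0 risen, and 21 EBF1-dTAG_N clusters, with 48 of 186 fallen (25.8%) and 50 risen (26.9%). Over all cluster regions 11.7% fell and 0.594% rose in EBF1-dTAG_C, and 27.3% fell and 19.5% rose in EBF1-dTAG_N, so the share that fell was near that of all cluster regions in both lines. At Bcl2l1, which encodes the survival factor BCL-XL, 4 of 7 regions fell in EBF1-dTAG_C, 5 of 6 fell in EBF1-dTAG_N, and 0 rose in either. The Bcl2l1 region chr2:152815774-152816072 had no peak in the dTAG-13 libraries, against fold enrichments of 9.06 and 8.98 in the DMSO libraries. It had log2 fold changes of -2.46 and -3.14 (adjusted p = 6.25e-04 in the authors' deposited EBF1-dTAG_C table). At Inpp5d, the gene of the phosphatase SHIP1, 3 of 11 regions fell in EBF1-dTAG_C, and 5 of 14 fell and 2 rose in EBF1-dTAG_N. At Abl1, whose viral form transforms these cells, 3 of 14 EBF1-dTAG_C regions and 6 of 18 EBF1-dTAG_N regions fell, with 0 rises.

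Genes of other lineages named few clusters, and the counts below stand beside 11.7% fallen over all cluster regions of EBF1-dTAG_C and 27.3% fallen and 19.5% risen over those of EBF1-dTAG_N. T and innate lymphoid genes name 2 EBF1-dTAG_C clusters, with 2 of 16 regions fallen, near the share over all cluster regions, and 4 EBF1-dTAG_N clusters, with 12 of 34 fallen (35.3%) and 6 risen (17.6%). Near Tcf7, the gene of the T cell factor TCF-1, 5 of 7 EBF1-dTAG_N regions fell, with a median log2 fold change of -1.47. Myeloid genes name 1 cluster of 7 regions in each line, with no call at Itgam in EBF1-dTAG_C and 3 falls (42.9%) at Cebpb in EBF1-dTAG_N. Erythroid, megakaryocyte and progenitor genes name 3 and 4 clusters, with 4 of 26 (15.4%) and 14 of 38 regions (36.8%) fallen and 0 and 7 (18.4%) risen. Genes of V(D)J recombination name 2 clusters and 1, with 4 of 33 (12.1%) and 1 of 9 regions (11.1%) fallen and 0 and 3 (33.3%) risen. Clusters within the immunoglobulin loci were counted apart. In the kappa locus 10 of 38 EBF1-dTAG_C regions (26.3%) and 20 of 61 EBF1-dTAG_N regions (32.8%) fell, with 0 and 4 rises. In the heavy chain locus 5 of 43 (11.6%) and 13 of 59 (22%) fell, at or below the shares over all cluster regions, with 0 and 4 rises.

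The pattern of change inside clusters was shared by the lines, which have no library in common. Of 5153 regions that could be paired and lay in clusters of both lines, 737 fell in EBF1-dTAG_C, and 733 of these (99.5%) fell in EBF1-dTAG_N, where they were 54.3% of 1349 falls. Of 36 that rose in EBF1-dTAG_C, 35 rose in EBF1-dTAG_N, 2.93% of its 1193 rises. None of the 5153 fell in one line and rose in the other. Of the regions that rose in EBF1-dTAG_N, 95.1% had a positive fold in EBF1-dTAG_C, beside 54.6% of all paired cluster regions. After the mean of each cluster was taken away, folds correlated with Pearson's r = 0.88 and Spearman's rho = 0.84 over 4482 regions of 566 clusters. Among the regions that fell in neither line rho was 0.69. The same region was the lowest of its cluster in both lines in 408 of the 566 clusters (72.1%), which held 7.92 paired regions on average, and the same region was the highest in 240 (42.4%). These correlations run across regions, which share libraries, cell background and processing, and regions are not independent replicates. The lines had 42803 paired regions in all, and these measures are not given for those outside clusters. Whether the agreement of the lines is particular to clusters was therefore not tested.

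**Figure D4:**
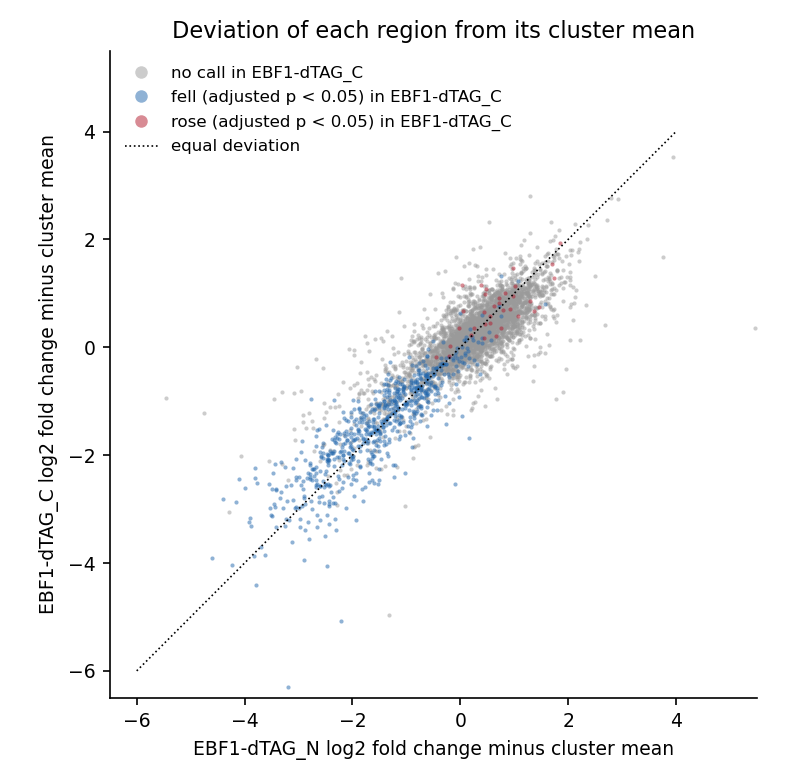
Log2 fold change minus the mean of its cluster in EBF1-dTAG_N (horizontal) and EBF1-dTAG_C (vertical) for 4482 paired regions in 566 clusters, coloured by the EBF1-dTAG_C call, with a dotted line of equal deviation. Regions far below their cluster's mean in one line lie far below it in the other, with r = 0.88.

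Peaks per library describe the clusters without the deposited folds, but they come from the same libraries and are not independent of them. How the authors built the regions is not given. Regions taken from the longer DMSO lists could lower the dTAG-13 shares, which was not tested. In EBF1-dTAG_C, 62.5% and 61.4% of cluster regions had a peak in the dTAG-13 libraries, against 72.1% and 77.0% in the DMSO libraries. In EBF1-dTAG_N it was 60.7% and 67.2% in the dTAG-13 libraries, against 75.7% and 73.8% in the DMSO libraries. Each dTAG-13 library thus lay below both DMSO libraries of its line. The groups averaged 61.9% ± 0.788 and 74.5% ± 3.45 (SD, n = 2 each) in EBF1-dTAG_C, a change of -12.6 points, and 64.0% ± 4.60 and 74.8% ± 1.34 (SD, n = 2 each) in EBF1-dTAG_N, a change of -10.8 points. Exact two-sided permutation tests gave p = 0.333 in each line, the smallest that 2 against 2 libraries allow, and p = 0.0556 over both lines, the smallest of 36 arrangements (Benjamini-Hochberg adjusted 0.375 and 0.25 over 9 comparisons).

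The drop was smaller where lists of the same length were compared. When each list was cut to the same number of best peaks, the change was -1.47 points in EBF1-dTAG_C, -4.37 in EBF1-dTAG_N and -2.92 over both lines. The dTAG-13 lists were shorter, and the part of depth in the drop was not tested. Other distal regions changed by -14.9 points in EBF1-dTAG_C and -6.15 in EBF1-dTAG_N. The cluster regions' excess over other distal regions was 7.06 and 6.21 points in the dTAG-13 libraries, against 3.46 and 5.06 in the DMSO libraries of EBF1-dTAG_C. In EBF1-dTAG_N it was 3.66 and 1.82 points, against 6.72 and 8.0 in the DMSO libraries. Over both lines the excess changed by -1.12 points with all peaks (exact permutation p = 0.5, adjusted 0.5). With lists of equal length it changed by -4.41 points in EBF1-dTAG_N, by -1.03 in EBF1-dTAG_C and by -2.72 over both lines (exact permutation p = 0.0556, the smallest of 36 arrangements, over 4 libraries with each treatment).

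**Figure D5:**
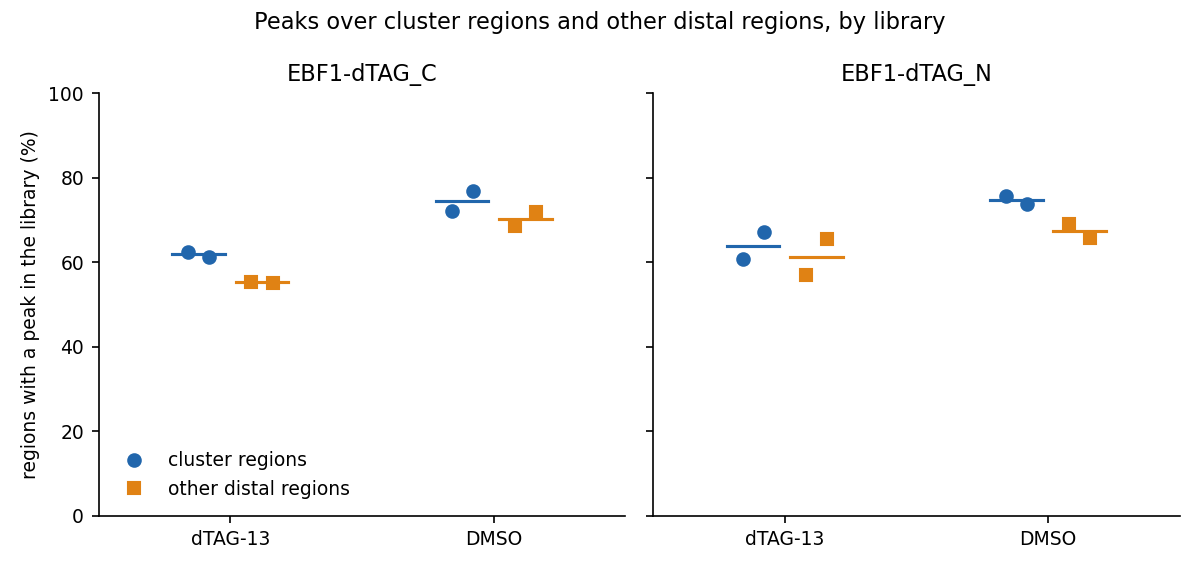
Percentage of cluster regions (circles) and of other distal regions (squares) with a peak in each library, dTAG-13 left and DMSO right, with group means as lines (n = 2 libraries each). Circles are lower in the dTAG-13 libraries of both lines, 61.9% against 74.5% in EBF1-dTAG_C and 64.0% against 74.8% in EBF1-dTAG_N.

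Many regions that fell had no peak left after dTAG-13. Of the 944 that fell in EBF1-dTAG_C, 563 (59.6%) had a peak in neither dTAG-13 library, and of the 2655 in EBF1-dTAG_N 1488 (56.0%). For other distal regions that fell these shares were 64.6% and 64.9%. A peak in both DMSO libraries and neither dTAG-13 library was found at 843 EBF1-dTAG_C cluster regions, 477 of which fell and 0 rose in the authors' deposited table, and the reverse at 153, of which 0 fell and 7 rose. In EBF1-dTAG_N the loss was found at 1366 regions, of which 1163 fell and 2 rose, and the gain at 363, of which 3 fell and 187 rose. The loss was found at 10.44% of cluster regions and 9.75% of other distal regions in EBF1-dTAG_C, and at 14.03% and 11.38% in EBF1-dTAG_N. The gain was found at 1.89% and 1.59% in EBF1-dTAG_C, and at 3.73% and 4.22% in EBF1-dTAG_N. Neither pattern is thus particular to clusters, and the differences between the sets were not tested. Peaks and folds come from the same libraries, so their agreement is not separate evidence.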

How the data were processed

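ATAC-seq was carried out by the submitters on A-MuLV transformed pro-B cells of 2 lines, with 2 libraries per group. The submitters' processing notes list MACS2 2.2.7.1, edgeR 3.32.0, Bowtie2 2.3.5.1, deepTools 3.3.2 and SAMtools 1.10, with GRCm38 as the build. How each was used is not given in the sources used here, nor are read filters or any shift of insertion sites. The peak lists the authors deposited are 1 per library, with a score, a fold enrichment and −log10 p- and q-values per peak, which are the authors' own. For each region, the tables the authors deposited give a p-value and an adjusted p-value, an F score, a log2 fold change and the mean abundance in log2 CPM. They hold no value per library, so region tests were not refitted, and any filter on low values is not given.

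Repeated entries (8 in EBF1-dTAG_C, 12 in EBF1-dTAG_N) were counted once. Adjusted p-values recomputed from the deposited p-values gave the deposited ones. Gene spans and start windows came from RefSeq GRCm38.p6, with 21900 protein-coding genes. Region starts are printed 1-based. Clusters were built as described in the report and tested on simulated data, as were the intraclass correlation and the adjustment of p-values. The level of a region in each group was rebuilt from its mean abundance and fold, and the approximate standard error of a fold is its size over the square root of F. A peak was counted for a region at an overlap of 1 bp or more. Library shares were compared by exact permutation tests, and library percentages carry counting errors of about 1 point (Wilson, 95%). Those errors treat the regions of a library as independent and leave out the spread between libraries. That spread can be wider, as with 60.7% and 67.2% of cluster regions in the EBF1-dTAG_N dTAG-13 libraries. Python 3.11.15, pandas 2.3.3, numpy 2.4.6 and scipy 1.17.1 were used.

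Named clusters are, per line, the 8 with most regions, the 10 with most falls, the 6 lowest and the 6 highest by median, the 8 with most rises, the 6 most uneven, the 6 largest with no call, and those called by a gene of 7 lists. The text gives those that show each pattern. Some of the clusters that this rule names are not reported here. The members and the lists were chosen with earlier results of these data known. Sequences of the regions themselves and motif counts in them were not analysed here. Alternatives were a stricter threshold, centred folds, other gaps and cluster sizes, an abundance filter, degrees of freedom, peak filters, left-out libraries and the replicate block.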

Additional observations from a re-analysis of the deposited data

Results flagged for a closer look

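The change in the cluster regions' excess of peaks over other distal regions went opposite ways in the lines. It was -4.62 points in EBF1-dTAG_N, with 3.66 and 1.82 in the dTAG-13 libraries against 6.72 and 8.0 in the DMSO libraries, and 2.38 points in EBF1-dTAG_C, with 7.06 and 6.21 in the dTAG-13 libraries against 3.46 and 5.06 in the DMSO libraries. The difference between the lines was -6.99 points (EBF1-dTAG_N minus EBF1-dTAG_C), with an exact two-sided permutation p = 0.0556, the smallest of 36 arrangements. In settings added after the data were seen, it was -1.59 points (p = 0.444) for peaks with −log10 q of at least 5, -3.38 points (p = 0.333) for equal numbers of best peaks and -7.29 points (p = 0.0556) for an overlap of at least 50% of the region, all by the same exact test. In the first 2 of these settings the change was -2.02 and -4.41 points in EBF1-dTAG_N and -0.430 and -1.03 points in EBF1-dTAG_C, so that both lines then went the same way.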

How the results depend on the processing

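The change in the share of cluster regions with a peak, in each line and over both, and the change of their excess over other distal regions over both lines kept their direction under all alternatives, and no p passed 0.05, which these designs cannot reach. The change of the excess in EBF1-dTAG_C alone turned from 2.38 points to -0.430 for peaks with −log10 q of at least 5 and to -1.03 for equal numbers of best peaks. Over both lines the excess changed by -2.72 points (exact permutation p = 0.0556) for equal numbers of best peaks. Without one replicate at a time, the change in the share of cluster regions with a peak was -15.0 to -10.1 points in EBF1-dTAG_C, -14.0 to -7.51 in EBF1-dTAG_N and -13.3 to -10.0 over both lines, and the excess over other distal regions changed by -1.58 to -0.66. Replicate numbers are shared by the groups, but nothing in the labels says that they pair libraries, and deviations of same-numbered libraries correlated at -0.20 in EBF1-dTAG_C and -0.0039 in EBF1-dTAG_N. Names inside the peak lists of 2 EBF1-dTAG_C libraries carry another replicate number than the labels (4 for DMSO replicate 1 and 3 for dTAG-13 replicate 2), so which EBF1-dTAG_C libraries share a number is uncertain, and with it what this correlation and the block p-values mean there. With the replicate block the values were the same, -12.6, -10.8, -11.7 and -1.12 points, with exact p = 0.5, 0.5, 0.125 and 0.75.

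Shares of cluster regions and of clusters stayed within 1.5 times of the values above except as follows. In EBF1-dTAG_C the regions that rose came to 0.0372% at an adjusted p under 0.01, 0.310% with centred folds and 1.24% with gaps of at most 5 kb. Over all EBF1-dTAG_C regions the shares that rose in these settings were 0.0258%, 0.162% and 0.308%. Clusters with falls and rises came to 0.101% at an adjusted p under 0.01, 1.01% with centred folds and, among clusters of 10 regions or more, 4.31%. In EBF1-dTAG_N the regions that rose came to 13% at an adjusted p under 0.01 and 10.9% with centred folds, beside 11.4% and 7.98% of all regions. With gaps of at most 5 kb, which leave 84 and 148 clusters, the variance between clusters was 3.67% and 5.63%. The share of cluster regions that fell ranged over the alternatives from 8.01% to 15.3% in EBF1-dTAG_C and from 24.5% to 30.4% in EBF1-dTAG_N. In the settings that gave these ends, the shares of all regions that fell were 4.21% and 6.62% in EBF1-dTAG_C. In EBF1-dTAG_N they were 15.9% and 20.8%. The region tests could not be repeated without a replicate because the deposited tables hold no value per library. Depth in reads is unknown, so a region without a peak may lie below what its library could show.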
